A study of Mus musculus with 6 samples.

Results

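The annexin family was examined in mouse 3T3 fibroblasts cultured in parallel with and without induction of human PARG. The 9 genes described are Anxa1, Anxa2, Anxa3, Anxa4, Anxa5, Anxa6, Anxa7, Anxa8 and Anxa11, taken by name from the 41819 genes of the deposited count table. They were selected on earlier results of these same dishes, in which the counts of Anxa8 differed between the groups, so the comparison of the groups is given for them as a description, and the counts of members past a threshold are printed beside the share over all genes with nothing read from them. The remaining annexin genes of the table, Anxa9, Anxa10 and Anxa13, are given for completeness.

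All 6 dishes came from a single clone of 3T3 cells, an albino Swiss mouse embryo fibroblast line, carrying a lentiviral TetOne cassette that places human PARG (hPARG) and the fluorescent protein mClover3 under doxycycline control, and both groups were kept in puromycin. The hPARG cells (3 dishes) received 500 ng/ml doxycycline for 72 h, and the control cells (3 dishes) received none. The RNA-seq held no doxycycline-treated cells without the cassette, so hPARG and doxycycline cannot be told apart. The mouse gene table gives no value for the human transgene, so its induction was not checked here. The labels call the samples wells of a plate where the methods describe dishes, and name no separate cultures of other clones, so any spread or p-value refers to these 6 samples of 1 clone and may be technical.

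PARG removes poly(ADP-ribose) chains from proteins. Annexins are cytoplasmic proteins that bind negatively charged phospholipids when calcium rises, through a conserved core of annexin repeats, while their variable N-terminal tails bind other proteins, among them members of the S100 family. In fibroblasts and other cells they serve in membrane repair, endosome traffic, attachment of actin to membranes and, on the cell surface, in the plasminogen system. Anxa8 is a family member best known from epithelia and from leukemic promyelocytes.

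The dishes held from 21619908 to 25263818 counts each, and 11509 genes passed the filter on low counts. The dishes numbered 2 stood apart in both groups: their deviation from the group mean rose with exon length across genes (Spearman's rho 0.530 in control dish 2 and 0.521 in hPARG dish 2), whereas rho lay between -0.513 and -0.252 in the other dishes. All 8 listed fibroblast markers were tested. Their summed level was 6116 to 7848 CPM (counts scaled to the TMM-normalized library total) in control and 7084 to 8956 CPM in hPARG dishes. Vim was the highest of them, at 3372 to 3805 CPM in control and 3563 to 4025 CPM in hPARG dishes. Pdgfrb was the lowest, at 3.05 to 4.29 and 3.62 to 5.32 CPM. The groups overlapped for Vim, Pdgfrb, Col1a2 and Fn1. They did not overlap for Col1a1, Col3a1 and Thy1, with log2 fold changes (hPARG minus control) of 0.58, 0.39 and 0.30. Nor did they overlap for Pdgfra, which was lower with hPARG, at -0.40. Over all tested genes, 9.62% did not overlap. None of the 6 epithelial markers passed the filter, and their sum stayed between 0.585 and 1.13 CPM in control and between 0.642 and 0.963 CPM in hPARG dishes. Endothelial markers (1 of 4 tested) summed to 0.896 to 1.37 CPM in control and 0.742 to 0.871 CPM in hPARG dishes, and leukocyte markers (2 of 5 tested, with Adgre1 and Cd3e at 0) to 4.99 to 8.66 and 5.03 to 8.58 CPM. Most of the leukocyte sum was Lyz2, at 4.34 to 7.65 CPM in control and 4.20 to 7.61 CPM in hPARG dishes. No marker was called, and the part of other cells in the results was not tested. In RNA from whole dishes, fewer cells of a type and less RNA per cell cannot be told apart.

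Sequences upstream of 3 members are shown, namely Anxa8, whose levels did not overlap between the groups, Anxa2, the most abundant member, and Anxa4, which alone among the members with a window had a match to the NF-kB consensus. They were taken from the RefSeq promoter table (GRCm38.p6), which held windows for 7 of the 9 members and none for Anxa3 and Anxa6. The windows cover the 250 bases before the RefSeq start and are written 5′ to 3′ on the strand of the gene, with motif matches in capitals. Both strands were searched for TATAAA, for TGANTCA, which is the AP-1 site and whose reverse complement is the same pattern, and for the NF-kB consensus.
Anxa8 (chr14:34085729-34085978, plus strand): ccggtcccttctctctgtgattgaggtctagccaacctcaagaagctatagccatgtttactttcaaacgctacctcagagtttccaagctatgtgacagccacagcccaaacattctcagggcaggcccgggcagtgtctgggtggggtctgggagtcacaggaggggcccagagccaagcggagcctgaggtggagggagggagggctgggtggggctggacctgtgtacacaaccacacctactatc
Anxa2 (chr9:69453433-69453619, plus strand): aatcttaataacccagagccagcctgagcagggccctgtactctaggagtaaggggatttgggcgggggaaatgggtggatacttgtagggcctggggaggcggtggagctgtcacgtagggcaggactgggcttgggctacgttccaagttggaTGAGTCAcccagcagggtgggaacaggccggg
Anxa4 (chr6:86793585-86793834, minus strand): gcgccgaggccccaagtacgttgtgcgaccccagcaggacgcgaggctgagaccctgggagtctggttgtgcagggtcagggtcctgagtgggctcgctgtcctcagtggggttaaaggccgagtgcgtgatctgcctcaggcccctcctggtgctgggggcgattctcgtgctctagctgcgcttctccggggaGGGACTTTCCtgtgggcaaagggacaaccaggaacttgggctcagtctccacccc

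The Anxa8 window held none of the 3 motifs, was 58% G or C, and contained 4 CpG dinucleotides, against medians of 52.4% and 6 over 32851 mouse promoter windows. It lies within the span of an annotated gene of the opposite strand, A630023A22Rik, which had between 0 and 2 counts in each dish. The Anxa2 window had 1 TGANTCA site, 95 bases before the start, and 9 CpG. It also had TATAAA 17 bases before the RefSeq start, within the part that GENCODE places inside the gene and that is not printed. The Anxa4 window shown had GGGACTTTCC 55 bases before the start, with 13 CpG. Another RefSeq window of Anxa4, inside the gene as GENCODE annotates it, had 2 CpG and none of the motifs. Across all windows TATAAA was present in 12.4%, TGANTCA in 6.75% and the NF-kB consensus in 3.90%. A further member, Anxa1, had TATAAA 32 bases before its RefSeq start, in a window that lies wholly inside the gene as GENCODE annotates it. The windows of Anxa5, Anxa7 and Anxa11 had none of the motifs. These matches describe letters only, since factor binding was not measured.

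The level of each gene was compared with that of other genes as deposited RPKM, which scales reads to transcript length and library total and is a level per length. Anxa2, a partner of S100a10 in a complex at the plasma membrane, was the most abundant, with 471, 398 and 475 RPKM in control dishes 1 to 3 and 516, 426 and 479 RPKM in hPARG dishes 1 to 3. It ranked 134 of the 11509 tested genes by mean RPKM. Anxa5, the phosphatidylserine-binding protein used to stain dying cells, followed with 229 ± 20.1 RPKM in control and 228 ± 19.9 RPKM in hPARG cells (mean ± SD, n = 3 here and below).

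Anxa1, a mediator of glucocorticoid action with an anti-inflammatory N-terminal peptide, stood at 211 ± 32.3 RPKM in control and 226 ± 38.8 RPKM in hPARG cells. Anxa3 stood at 174 ± 16.8 and 175 ± 19.0 RPKM. The ranges of Anxa5 and Anxa1 overlapped in both groups, as did those of Anxa1 and Anxa3, so the place of Anxa1 between the other two was not separated by the spread between dishes, whereas Anxa5 lay above Anxa3 in every dish of both groups. Together with Anxa2 they held between 80.8% and 83.0% of the summed RPKM of the family in a dish.

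Anxa7, a large member with a long N-terminal tail, followed at 89.3 ± 8.65 RPKM in control and 86.4 ± 9.68 RPKM in hPARG cells. Anxa6, which carries a duplicated annexin core, stood at 60.1 ± 4.60 and 63.3 ± 6.67 RPKM. Anxa4 had 41.8 ± 2.62 and 42.8 ± 1.16 RPKM, and Anxa11, another member with a long N-terminal tail, had 34.0 ± 1.64 and 35.6 ± 3.24 RPKM. These 4 genes were separated from each other and from their neighbours in both groups.

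Anxa8 was the least abundant of the 9 members in every dish, at rank 6453 of the tested genes. Even at its highest value, 9.22 RPKM in hPARG dish 3, it lay below the lowest value of Anxa11, which was 31.8 RPKM. The order Anxa2, Anxa5, Anxa1, Anxa3, Anxa7, Anxa6, Anxa4, Anxa11 and Anxa8 was the same in control and hPARG cells. It depends in part on the transcript length behind RPKM: per kilobase of all annotated exons, Anxa5 lay above Anxa2 in control cells and Anxa6 above Anxa7 in both groups. The summed RPKM of the annexin genes was 1293 ± 106 in control and 1340 ± 107 in hPARG cells, a difference smaller than the SD.

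**Figure D1:**
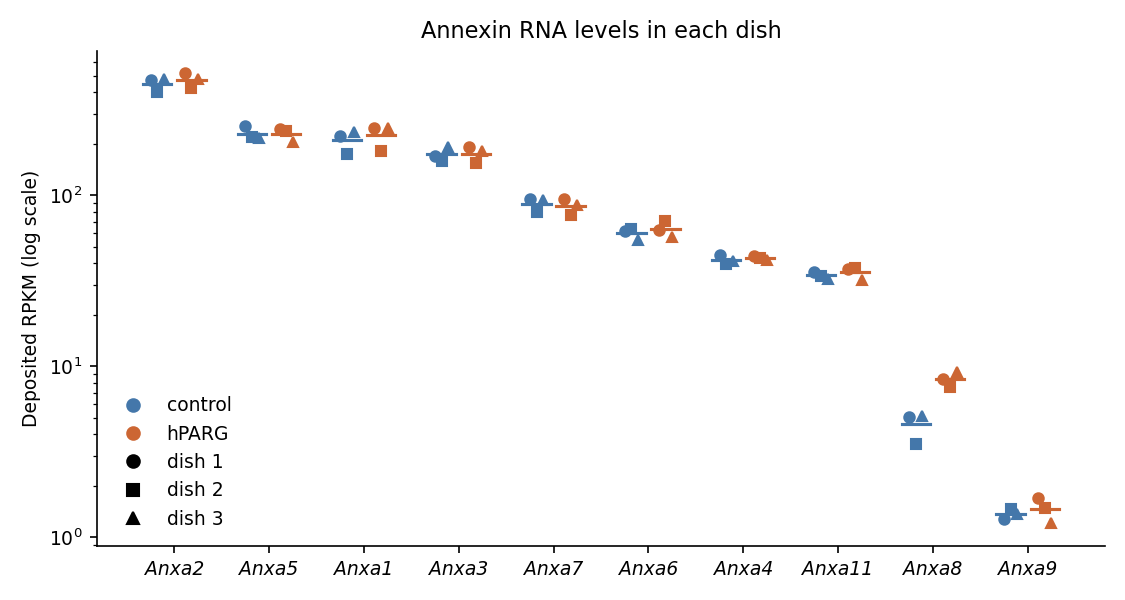
Level of each annexin gene in each dish as deposited RPKM on a log axis, with control dishes in blue, hPARG dishes in orange, the dish number given by the shape and the group mean by the bar. The groups overlap for all genes shown except Anxa8, which lies between 3.53 and 5.15 RPKM in control and between 7.54 and 9.22 RPKM in hPARG dishes.

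Anxa9 was detected at 1.37 ± 0.0944 RPKM in control and 1.46 ± 0.240 RPKM in hPARG cells, from 62 to 84 counts per dish. Anxa10 had 0, 6 and 4 counts in control and 2, 3 and 8 counts in hPARG dishes 1 to 3 and did not pass the filter. Anxa13 had 0 counts in all 6 dishes, where 3 counts would correspond to 0.117 to 0.141 CPM, for counting error only.

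The comparison of hPARG with control cells asks which genes change when hPARG is induced. Anxa8 (ENSMUSG00000021950, GRCm38 chromosome 14, 34085981 to 34100571, plus strand, 12 exon blocks with 1880 bases, none of them shared with another gene) had 260, 161 and 230 counts in control dishes 1 to 3 and 380, 370 and 428 counts in hPARG dishes 1 to 3. On the TMM-normalized scale these were 10.1, 6.93 and 10.8 CPM in control and 17.4, 15.2 and 19.6 CPM in hPARG dishes. Every hPARG dish was above every control dish, and the dish numbered 2 was the lowest of its group on the CPM scale in both groups.

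The mean Anxa8 level was 9.30 ± 2.09 CPM without and 17.4 ± 2.19 CPM with hPARG. The log2 fold change was 0.91 (SE 0.185), or 1.87-fold. In deposited RPKM the ratio of the means was 1.84. Anxa8 thus ranked 42 from the top among 11509 genes by log2 fold change. Its share of the family's RPKM was between 0.301% and 0.382% in control and between 0.583% and 0.688% in hPARG dishes. Since Anxa8 gave the family its selection, this difference is what the choice rested on and not separate evidence.

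**Figure D2:**
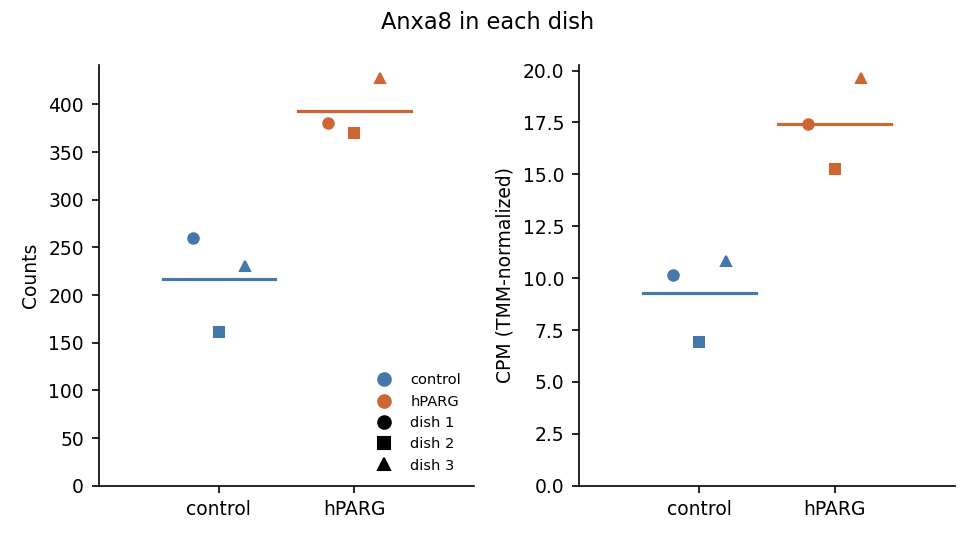
Anxa8 in each dish as counts (left) and as TMM-normalized CPM (right), both axes starting at 0, with the group mean as a bar. The control dishes lie between 6.93 and 10.8 CPM and the hPARG dishes between 15.2 and 19.6 CPM.

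The other 8 members differed much less, and the groups overlapped for each of them. Anxa1, for instance, had 12097, 8357 and 11046 counts in control and 11763, 9335 and 12129 counts in hPARG dishes 1 to 3, with a log2 fold change of 0.13 (SE 0.187). Anxa2 had 22613, 16900 and 19711 counts in control and 21632, 19402 and 20675 counts in hPARG dishes, with a log2 fold change of 0.11 (SE 0.138). For both genes the dishes numbered 2 were the lowest in CPM, and the difference between groups was smaller than the gap between dishes of one group.

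Anxa6, which binds late endosomes and the plasma membrane, had 4237, 3831 and 3241 counts in control and 3736, 4563 and 3503 counts in hPARG dishes, with a log2 fold change of 0.11 (SE 0.100). Besides Anxa8 it was the only member whose log2 fold change exceeded its SE. Anxa11 stood at a log2 fold change of 0.10 (SE 0.097), Anxa4 at 0.06 (SE 0.097) and Anxa3 at 0.04 (SE 0.142). Anxa5 stood at 0.02 (SE 0.111), and Anxa7 at -0.02 (SE 0.138) was the only member with a negative value.

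Among the members, 0 of 9 were called by edgeR's quasi-likelihood test at a false discovery rate (FDR, Benjamini-Hochberg over all tested genes) under 0.05, where 0.0869% of tested genes (10 of 11509) were called. At an unadjusted p under 0.05 the count was 1 of 9, Anxa8, whose difference had chosen the family, beside 3.95% of all tested genes in either direction and 1.42% in the higher direction. Groups did not overlap in CPM for 1 of 9 members, again Anxa8, beside 9.62% of tested genes, or 3.61% with hPARG above control. Of the members, 8 of 9 had a log2 fold change above 0, against 50.9% of tested genes. The median log2 fold change was 0.10 for the members and 0.004 for all tested genes, while the median size without sign was 0.0967 and 0.0931, so the size of the difference in a typical member was close to that in a typical gene.

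With a single dish left out, the log2 fold change of Anxa8 lay between 0.73 and 1.03. Without both dishes numbered 2, an alternative added after the data were seen, it was 0.83.

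**Figure D3:**
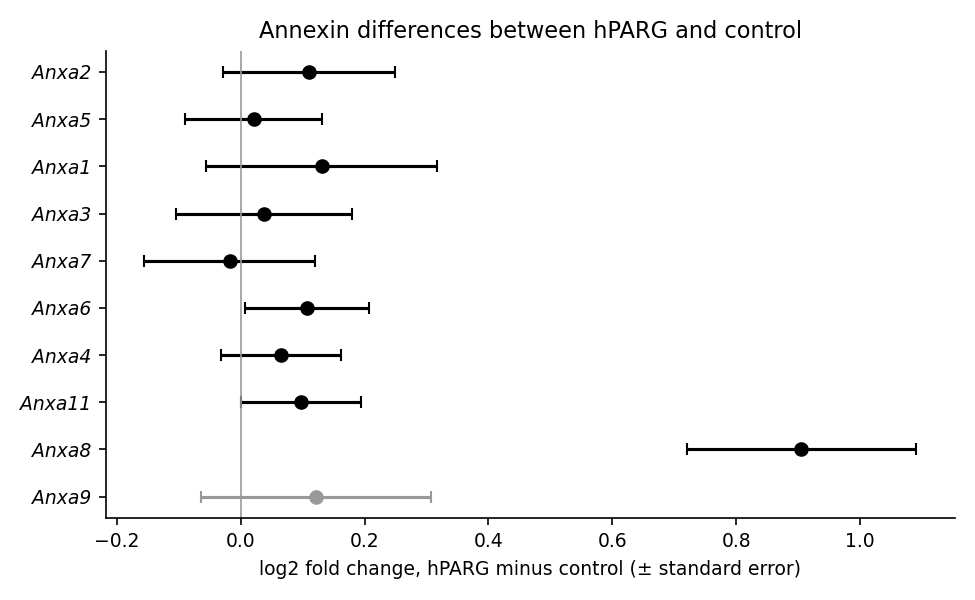
Log2 fold change of each annexin gene, hPARG against control, with its standard error as a bar and the genes in order of their level, Anxa9 in grey. Anxa8 stands at 0.91, and the other genes lie between -0.02 and 0.13.

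The members also differed in their spread among dishes of 1 group. The pooled SD of log2 CPM was largest for Anxa1 (0.286) and Anxa8 (0.276) and smallest for Anxa11 (0.0818) and Anxa4 (0.0822), with a median of 0.176 for the members and 0.188 for all tested genes. Dish 2 lay furthest below the group mean for Anxa8 in control cells, at -0.39 log2 units (-0.18 in hPARG cells), and for Anxa1 in hPARG cells, at -0.34 (-0.31 in control cells). Anxa2, Anxa3, Anxa4 and Anxa7 were also lowest in dish 2 of both groups.

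Anxa6 went the other way, at 0.03 in control dish 2 and 0.12 in hPARG dish 2. Anxa5 and Anxa11 were below the mean in control dish 2 and above it in hPARG dish 2. The length of all annotated exons is given as a percentile among tested genes. Members lowest in dish 2 of both groups were Anxa8 (10.9), Anxa1 (25.7), Anxa3 (37.3), Anxa2 (38.4), Anxa4 (51.3) and Anxa7 (66.6). Those not lowest there in both were Anxa5 (9.70), Anxa6 (26.1) and Anxa11 (44.1). The part of exon length in this pattern was not tested.

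**Figure D4:**
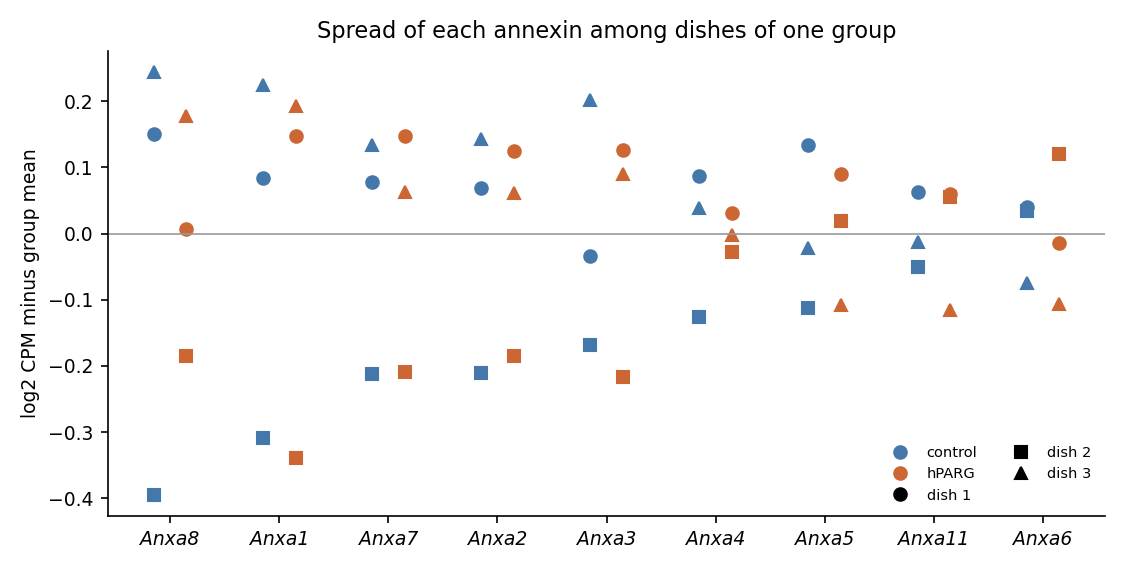
Deviation of each dish from its group mean in log2 CPM for the 9 members, with the dish number given by the shape. The dishes numbered 2 (squares) lie lowest in both groups for Anxa8, Anxa1, Anxa7, Anxa2 and Anxa3, between -0.39 and -0.17, and for Anxa4, at -0.13 and -0.03, and lie above the mean in both for Anxa6.

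Over the 6 dishes, which mix both groups, Pearson's r of log2 CPM with Anxa8 was 0.740 for Anxa4, 0.695 for Anxa2 and 0.625 for Anxa1, and it was lowest for Anxa5 at 0.235. Outside the family the genes most like Anxa8 were Serpinb9b, a serine protease inhibitor (r = 0.993), Sec31b, a COPII coat component (r = 0.992), and Phyhd1 (r = 0.991), and 22 of 11508 other genes reached 0.95. Serpinb9b had 285, 197 and 240 counts in control and 368, 343 and 411 counts in hPARG dishes. Sec31b had few counts, namely 14, 7 and 12 in control and 20, 20 and 27 in hPARG dishes. For Serpinb9b, Sec31b and Phyhd1, as for Anxa8, every hPARG dish was above every control dish in CPM. Their log2 fold changes were 0.69, 1.06 and 0.66. These points share dishes, depth and the group difference, so the values are a description of 6 dishes.

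The groups overlapped for the nearest tested gene on each side of Anxa8 on chromosome 14. The nearest tested gene at lower coordinates, Rbp3, is a retinoid carrier 121764 bases away, and it had a log2 fold change of 0.47 (SE 0.503). Its counts were 359, 194 and 46 in control and 237, 264 and 273 in hPARG dishes, and the log2 fold change was 1.12 without control dish 1 and 0.03 without control dish 3. At higher coordinates, Shld2, a DNA repair gene of the shieldin complex, lies 136461 bases away and had a log2 fold change of -0.22 (SE 0.118).

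Genes that act with annexins were examined as 5 lists of 73 genes in all, of which 51 passed the filter. The edgeR quasi-likelihood test called 0 of the 51 at an FDR under 0.05. Other tests called 2 with DESeq2 (0.452% of all tested genes called), 1 with edgeR's likelihood ratio test (0.565%), 0 with an exon length offset (0.2%) and 2 without both dishes numbered 2 (0.345%). At an unadjusted p under 0.05, 3 were higher and 2 lower in hPARG cells, where 1.42% of tested genes were higher and 2.54% lower. The median log2 fold change was 0.07, with 36 genes above 0 and 15 below.

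Many S100 proteins are calcium sensors, and some of the family bind annexin tails. Of 14 listed, 9 were tested, 8 with a positive and 1 with a negative log2 fold change (median 0.12). S100a11, the partner of Anxa1, had a log2 fold change of 0.38 (SE 0.186) with overlapping groups, and S100a6 and S100a4 stood at 0.09 and 0.12, with 51.7% of the exon bases of S100a4 shared with Gm42674. The largest values were S100a16, at 1.08 (SE 0.387) from 7 to 11 counts in control and 15 to 22 counts in hPARG dishes (edgeR FDR 0.999), and S100a14, at 0.59. The groups did not overlap for S100a16 and overlapped for S100a14. The RPKM of S100a10 relative to Anxa2 was 1.21, 1.12 and 1.35 in control and 1.24, 1.06 and 1.54 in hPARG dishes, so the groups overlapped.

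The plasminogen system, in which the Anxa2 complex binds plasminogen at the cell surface, had 8 of 12 genes tested (median 0.16, 6 positive and 2 negative). Plau, the urokinase activator, was at 18.5 ± 1.92 CPM in control and at 25.1 ± 3.69 CPM with hPARG, and its log2 fold change was 0.44 (SE 0.141, edgeR FDR 0.965). The groups did not overlap for Plau, and it missed the threshold. The urokinase receptor Plaur stood at -0.05 and Eno1 at 0.07.

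For membrane repair and calcium-dependent sorting, 19 of 20 genes were tested, with 14 positive and 5 negative values and a median of 0.04. Cavin1 (0.06), Cav1 (0.13) and Chmp4b (0.02), which serve caveolae and the ESCRT machinery, were near 0. Dysf, encoding dysferlin, stood at -0.48, and Ahnak, a giant scaffold bound by the S100a10 and Anxa2 complex, at 0.42, neither at an unadjusted p under 0.05. Dysf moved to -0.01 without control dish 2, and Ahnak to 0.16 without hPARG dish 2.

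For exposure of phosphatidylserine, the lipid that Anxa5 binds, 10 of 13 genes were tested (median 0.08, 7 positive and 3 negative). Plscr2, a phospholipid scramblase, had 1352, 1140 and 1364 counts in control and 774, 693 and 824 counts in hPARG dishes. The log2 fold change was -0.71 (SE 0.149, edgeR FDR 0.419), with every hPARG dish below every control dish. Plscr2 passed an FDR under 0.05 with DESeq2 (FDR 0.0187) and with edgeR's likelihood ratio test (FDR 0.00991). It also passed without both dishes numbered 2 (edgeR FDR 0.0156). Single dishes were left out only in edgeR's quasi-likelihood test, which had not called Plscr2 with all dishes. It did not pass there either, and its log2 fold change lay between -0.79 and -0.59. Its relative Plscr1 was at 67.6 ± 12.9 CPM in control and at 46.1 ± 9.15 CPM with hPARG, and the groups did not overlap. The log2 fold change of Plscr1 was -0.55 (edgeR FDR 0.999, and 0.0380 without both dishes numbered 2). Plscr3, with 28.3% of its exon bases shared with Tnk1, stood at 0.04 and the flippase subunit Tmem30a at 0.08, both with overlapping groups.

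Of the formyl peptide receptors, through which the Anxa1 peptide signals, and the phospholipase A2 enzymes, 5 of 14 genes were tested, with 1 positive and 4 negative values (median -0.16). The receptors Fpr1, Fpr2 and Fpr3 did not pass the filter. Pla2g4a, the cytosolic enzyme that releases arachidonic acid, stood at 0.18, Pla2g15 at -0.16, Pla2g6 at -0.09, Pla2g4c at -0.21 and Pla2g4b at -0.88 (SE 1.05). Of these, only Pla2g4a had groups that did not overlap, at 69.9 to 83.3 CPM in control and 85.4 to 90.2 CPM in hPARG dishes. Pla2g4b had 1, 20 and 42 counts in control and 2, 8 and 24 counts in hPARG dishes, shares 66.5% of its exon bases with Gm28042 and Sptbn5, and moved to 0.20 without control dish 3 and to -2.10 without hPARG dish 3.

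**Figure D5:**
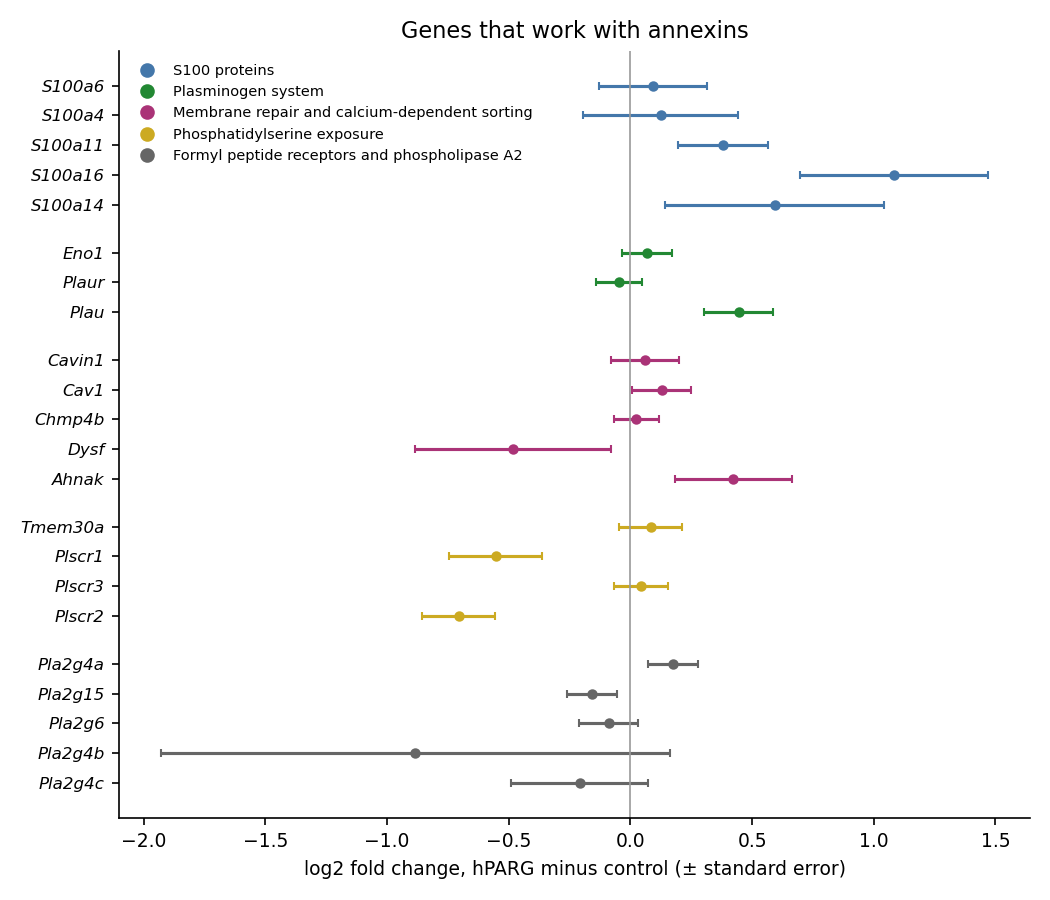
Log2 fold change with standard error, hPARG against control, for named genes of the 5 lists that act with annexins, coloured by list. S100a16 (1.08, SE 0.387) and Pla2g4b (-0.88, SE 1.05) lie furthest from 0. Plscr2 (-0.71), S100a14 (0.59), Plscr1 (-0.55), Dysf (-0.48) and Plau (0.44) follow. None passed an FDR under 0.05 in edgeR's quasi-likelihood test with all 6 dishes, while Plscr2 passed with DESeq2.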

How the data were processed

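Poly(A) RNA of 6 dishes was read from both ends over 150 bp. The authors mapped the reads to GRCm38 with Ensembl release 96 in CLC Genomics Workbench 12.0, and the use of strand in counting is not given in the sources used here. The deposited counts are whole numbers per gene without normalization. The deposited RPKM values are scaled to transcript length and to a total the sources do not define. The authors' CPM and TPM and the columns of their own comparison (fold changes, p-values, FDR and group maxima) were not used.

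Counts were filtered with edgeR 4.0.16 filterByExpr (minimum count 10), TMM-normalized and compared with glmQLFit and glmQLFTest (R 4.3.3) in a design with the group alone. Some of the fits were also run on counts simulated with known changes. The simulation held no shared effect of dish number or exon length, so it cannot vouch for the fits under that pattern. All 41819 identifiers matched GENCODE M21. SE follows from the F statistic, as the size of the log2 fold change over its root. The depth was 21619908 to 25263818 counts per dish, and 3 dishes per group limit the precision.

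The members and lists were chosen with earlier results of these data known. Named were all annexins, per list any gene called at an FDR under 0.05, the 3 highest by RPKM and the 2 largest log2 fold changes, the nearest tested gene on each side of Anxa8, and the 3 genes most correlated with it. A gene that met this rule is not reported here. S100a10, Gm42674, Gm28042, Sptbn5, Tnk1, A630023A22Rik, Mindy1, 6330562C20Rik and the single markers were named after their values were seen. Alternatives were DESeq2 1.42.0, other normalizations and filters, the likelihood ratio test, an exon length offset (spline with 4 degrees of freedom), a replicate block and each dish left out.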

Additional observations from a re-analysis of the deposited data

How the results depend on the processing

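Anxa8 kept a positive log2 fold change in all 16 alternatives (0.73 to 1.03). The number of annexin genes called was 1, Anxa8, with DESeq2, the likelihood ratio test, the exon length offset, the replicate block, the block with the offset, and without both dishes numbered 2 (chosen after seeing the data), and otherwise 0. These calls rest on the difference that chose the family and add no support to it. Over all genes 10 were called, against 52 with DESeq2, 65 with the likelihood ratio test, 16 with no filter on low counts, 23 with the exon length offset, 40 without both dishes numbered 2, and 3 to 13 with single dishes left out, with 3 without hPARG dish 1 and 5 without hPARG dish 3. Genes of the partner lists called were 0, against 2 with DESeq2, 1 with the likelihood ratio test (Plscr2) and 2 without both dishes numbered 2 (Plscr1 and Plscr2). The cause of these shifts was not tested.

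With the replicate block 330 genes were called over all genes, 1 annexin gene and 8 partner genes, and with the block and the offset 469, 1 and 7. Anxa8 had a log2 fold change of 0.92 (SE 0.102) with the block. Among the named partners, Plscr2, Plscr1, Plau and Ahnak were called in both block fits and S100a11 in the block alone. For pairing, dishes were compared by their deviations from the group mean in log2 CPM across genes, and not by their levels. These deviations correlated at 0.0963, 0.610 and 0.168 for same-numbered dishes, and at 0.335 for control dish 3 with hPARG dish 1. Deviations cancel within a group, so a dish cannot correlate highly with every dish of the other group. The numbers were not taken to pair the dishes. The signs of Anxa1, Anxa3, Anxa5 and Anxa7, never called, changed in 1, 3, 4 and 3 alternatives. With 3 dishes per group an exact permutation test cannot give a p under 0.1.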
